A study of Mus musculus with 12 samples.

Results

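A group of 10 genes of the MHC class II pathway was followed across lung tumours of a mouse model of small cell lung cancer treated with the HDAC inhibitor entinostat, an antibody against PD-1, or both. They were taken by symbol from the deposited count table: 3 peptide-presenting chains (H2-Aa, H2-Ab1, H2-Eb1), the invariant chain (Cd74), the regulator Ciita, 3 chains of the peptide-loading proteins (H2-DMa, H2-DMb1, H2-Oa) and 2 genes of lysosomal processing (Ctss, Ifi30). These are 10 of the 22738 gene rows, and all 10 passed the filter on low counts that left 17426 genes for testing.

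The 12 libraries were 3 each of a combination, an entinostat, an anti-PD-1 and a control group. All tumours arose in mice with Rb1 fl/fl, p53 fl/fl and Myc lsl/lsl T58A alleles, induced at 8 weeks of age with Ad5CGRP-Cre given into the trachea, so that Cre was expressed from the promoter of a neuroendocrine gene. The combination group received entinostat at 15 mg/kg daily by mouth for 28 days together with anti-PD-1 at 10 mg/kg by intraperitoneal injection for 4 weeks, each as in the single-agent groups. The entinostat group received the inhibitor alone and the anti-PD-1 group the antibody alone. The control group received neither. The labels name methylcellulose and a rat isotype antibody as control treatments without saying which of them the control libraries stand for, and they give neither the mouse strain nor the age at collection. Whether every library is from its own mouse is also not stated, and p-values here measure only the spread between these libraries, which may be technical.

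MHC class II molecules are pairs of an alpha and a beta chain that present peptides from the endosomal pathway to CD4+ T cells. The invariant chain fills the groove until proteases such as cathepsin S (Ctss) degrade it, and H2-DM then exchanges the remaining fragment for peptide, a step that H2-O restrains. Dendritic cells, macrophages and B cells make class II constitutively, other cells mainly after interferon gamma, and in both settings the coactivator Ciita acts on promoters whose X and Y boxes are bound by RFX and NF-Y proteins. Neuroendocrine small cell lung cancer cells are known for low antigen presentation, and a dissected tumour also contains stromal and immune cells, so fewer cells of a type and less RNA per cell cannot be told apart in these libraries.

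The H2 genes lie on chromosome 17, from H2-Oa at 34092379 to 34095234 to H2-Eb1 at 34305867 to 34316674 (GRCm38.p6), with the H2-DM genes, H2-Ab1 and H2-Aa between them. Ctss lies on chromosome 3 and Ifi30 on chromosome 8. From the RefSeq promoter table of GRCm38.p6, which gives 250 bases before each start, promoters of 7 of the 10 genes were read (H2-Aa, H2-Eb1, H2-DMa, H2-DMb1, H2-Oa, Ctss and Ifi30). Promoters of H2-Ab1, Cd74 and Ciita were not read, so nothing is said here about motifs in them. In 4 of these 7, the start of an X half-site (GNAAC) was followed 28 to 34 bases later by the start of a Y box (TGATTGG) on the gene's strand. Each line gives the 170 bases before the start, 5′ to 3′ on the gene's strand, with the X half-site and the Y box in capitals, to show the arrangement these promoters share.
H2-Aa: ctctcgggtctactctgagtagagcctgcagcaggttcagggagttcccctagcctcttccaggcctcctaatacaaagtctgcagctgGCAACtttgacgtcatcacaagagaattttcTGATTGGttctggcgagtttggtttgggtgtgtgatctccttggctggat
H2-Eb1: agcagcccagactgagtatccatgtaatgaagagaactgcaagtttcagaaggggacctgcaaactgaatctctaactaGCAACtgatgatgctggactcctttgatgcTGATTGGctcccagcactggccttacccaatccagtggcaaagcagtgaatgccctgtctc
H2-DMb1: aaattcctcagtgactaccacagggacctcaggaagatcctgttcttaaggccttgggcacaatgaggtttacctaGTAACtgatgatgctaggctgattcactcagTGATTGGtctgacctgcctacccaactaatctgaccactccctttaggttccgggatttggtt
H2-Oa: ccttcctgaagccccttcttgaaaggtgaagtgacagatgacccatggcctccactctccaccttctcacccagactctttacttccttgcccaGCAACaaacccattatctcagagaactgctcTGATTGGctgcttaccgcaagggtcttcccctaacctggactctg

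The H2-Aa window is chr17:34287824-34287993 on the minus strand. The other windows are on the plus strand, at chr17:34305697-34305866 for H2-Eb1, chr17:34153021-34153190 for H2-DMb1 and chr17:34092209-34092378 for H2-Oa. The first bases of the paired motifs were 30 bases apart in H2-Eb1 and 31 bases apart in H2-Aa, H2-DMb1 and H2-Oa. The Y box began 50 bases before the start in H2-Aa and 45 bases before it in H2-Oa. No such pair was found in the windows of H2-DMa, Ctss or Ifi30. Over all 32851 promoters of the table, read on both strands, the pair was present in 65, or 0.198%, the Y box alone in 7.23% and the X half-site alone in 79.6%. The motifs and their spacing were chosen with these promoters in view, so the shares describe how rare the letters are and are no test. Of 3 further class II genes with an entry, H2-Ob and H2-Eb2 also had the pair and H2-DMb2 did not.

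Total counts were 31295987 to 54001886 per library. The neuroendocrine markers fixed for the tumour cells, such as Chga and Syp, were detected in every library, with 11 of 11 tested and summed levels of 508 to 1046 CPM in combination, 638 to 1099 CPM in entinostat, 818 to 1191 CPM in anti-PD-1 and 1067 to 1984 CPM in control libraries. CPM, the count per unit of library size, is scaled here by TMM factors, which correct for library composition. The 5 leukocyte markers (such as Ptprc) summed to 44.2 to 164.7 CPM in combination, 58.7 to 145.3 CPM in entinostat, 70.8 to 121.4 CPM in anti-PD-1 and 57.0 to 110.4 CPM in control libraries. Control library 1 and combination library 3 were the lowest 2 of the 12 libraries for H2-Aa, H2-Eb1, Cd74, H2-DMb1 and Ctss.

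Per kilobase of exon, Ctss was the highest of the genes with a mean level of 33.7 ± 16.0 CPM per kb (SD, n = 12), followed by Cd74 with 19.9 ± 12.7 CPM per kb. The chains came next, with 17.6 ± 14.1 CPM per kb for H2-Aa, 11.7 ± 8.74 CPM per kb for H2-Ab1 and 6.07 ± 4.82 CPM per kb for H2-Eb1. The loading chains were lower, at 1.97 ± 1.07 CPM per kb for H2-DMb1 and 0.97 ± 0.47 CPM per kb for H2-DMa. Ciita had 0.36 ± 0.19 CPM per kb and H2-Oa 0.27 ± 0.35 CPM per kb. Ranges over the 12 libraries overlapped between every pair of neighbours in this order. Ifi30 was left out because the exon annotation used holds no protein-coding transcript for it.

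The 3 chains that carry the peptide groove varied more between libraries within the combination, anti-PD-1 and control groups than between the means of the 4 groups, and less within the entinostat group. H2-Ab1, the beta chain of the A molecule, had 14.1, 32.2 and 6.61 CPM in combination, 13.1, 12.0 and 7.06 CPM in entinostat, 18.0, 8.93 and 6.22 CPM in anti-PD-1 and 2.29, 37.6 and 12.7 CPM in control libraries. Control libraries therefore held both the lowest and the highest of the 12 values, which differed 16.4-fold, and every other group lay within the control range.

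H2-Aa, the alpha chain of the same molecule, had 22.3, 51.9 and 2.59 CPM in combination, 19.3, 14.8 and 13.9 CPM in entinostat, 28.8, 11.2 and 9.49 CPM in anti-PD-1 and 2.33, 48.1 and 13.9 CPM in control libraries. Its highest value was in combination library 2 and its lowest in control library 1, a 22.3-fold range. H2-Eb1, the beta chain of the E molecule, had 10.6, 23.8 and 1.41 CPM in combination, 8.53, 7.47 and 6.11 CPM in entinostat, 15.4, 6.56 and 6.19 CPM in anti-PD-1 and 1.10, 26.8 and 7.59 CPM in control libraries. Its 24.4-fold range again ran between control libraries 1 and 2. The entinostat group was the tightest of the 4 for these chains, with a coefficient of variation of 16.5% for H2-Eb1, against 113% in the control group. The partner alpha chain of the E molecule, listed as H2-Ea-ps, had 1 count in control library 1, 6 counts in control library 3 and none in the other 10 libraries.

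**Figure D1:**
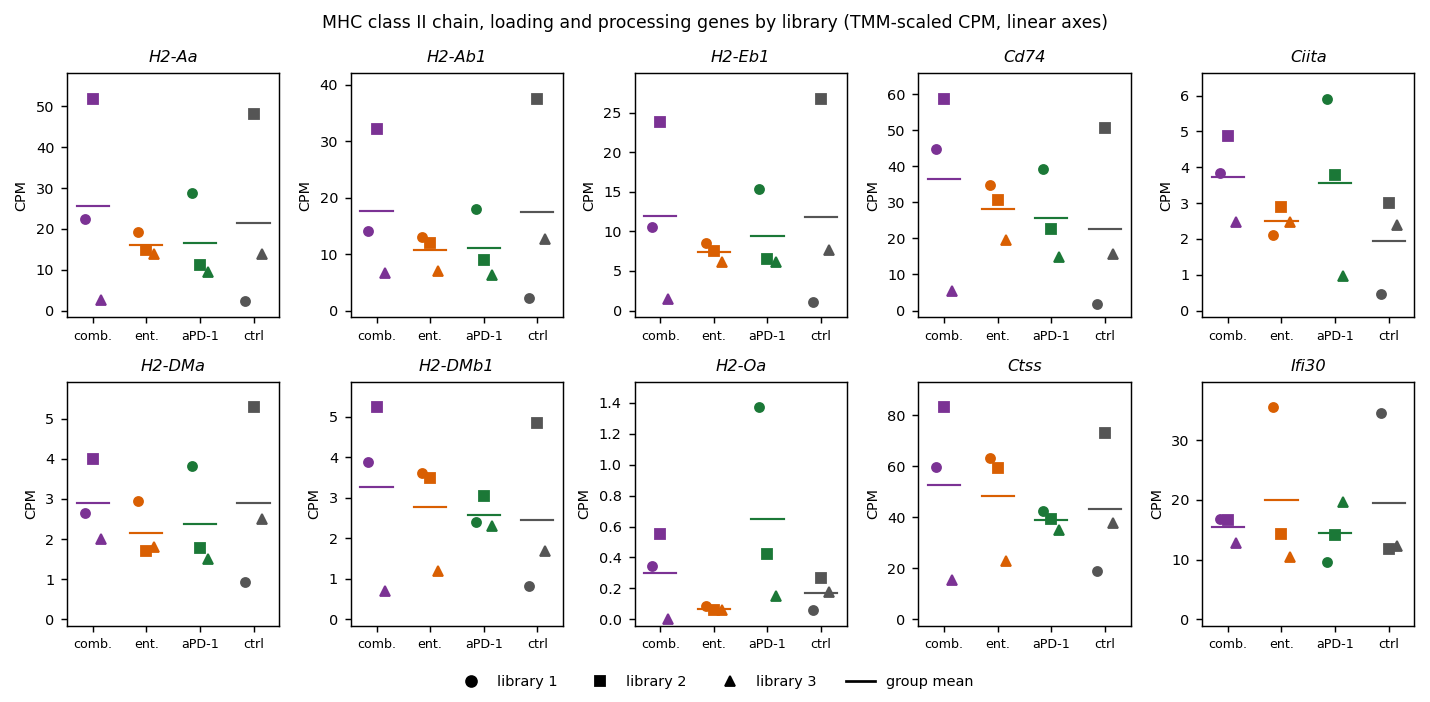
TMM-scaled CPM of each of the 10 genes on linear axes, with a point for each of 3 libraries per group and a line at the group mean, in the order combination, entinostat, anti-PD-1 and control. The spread within the combination and control groups exceeds the distance between group means for H2-Aa, H2-Ab1, H2-Eb1 and Cd74, and Ifi30 does not follow the same libraries.

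Cd74, the invariant chain, had the largest ratio of highest to lowest library among the 9 genes detected in every library. It had 44.9, 58.8 and 5.50 CPM in combination, 34.8, 30.6 and 19.4 CPM in entinostat, 39.2, 22.7 and 14.9 CPM in anti-PD-1 and 1.90, 50.7 and 15.6 CPM in control libraries. The lowest and highest libraries, control 1 and combination 2, differed 30.9-fold, and the groups overlapped. The mean was 36.4 ± 27.6 CPM in combination and 22.7 ± 25.2 CPM in control libraries (SD, n = 3 each).

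Ciita, the transcriptional coactivator that switches class II genes on, had 3.83, 4.88 and 2.46 CPM in combination, 2.11, 2.90 and 2.47 CPM in entinostat, 5.92, 3.78 and 0.97 CPM in anti-PD-1 and 0.45, 3.00 and 2.38 CPM in control libraries. Its highest value was in anti-PD-1 library 1 and its lowest in control library 1, which is also the lowest library for H2-Aa, H2-Ab1, H2-Eb1, Cd74 and H2-DMa. Over the 6 libraries with anti-PD-1 Ciita averaged 3.64 ± 1.75 CPM and over the 6 without it 2.22 ± 0.93 CPM (SD).

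Of the loading genes, H2-DMa had 2.66, 4.00 and 2.01 CPM in combination, 2.95, 1.70 and 1.80 CPM in entinostat, 3.81, 1.76 and 1.51 CPM in anti-PD-1 and 0.94, 5.28 and 2.51 CPM in control libraries. Its range was 5.62-fold and, as for H2-Ab1, control libraries held both ends. H2-DMb1, its beta partner, had 3.89, 5.23 and 0.70 CPM in combination, 3.61, 3.48 and 1.19 CPM in entinostat, 2.41, 3.03 and 2.30 CPM in anti-PD-1 and 0.82, 4.84 and 1.70 CPM in control libraries. Combination library 3 was its lowest library and combination library 2 its highest. H2-DMb1 has a near-identical copy, H2-DMb2, and as the labels do not say how reads were divided between them, both values are uncertain.

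H2-Oa, a chain of the H2-DM antagonist that is mostly made by B cells, was near the limit of detection. It had 12, 22 and 0 counts in combination, 4, 2 and 2 counts in entinostat, 41, 12 and 5 counts in anti-PD-1 and 3, 13 and 7 counts in control libraries. The highest library, anti-PD-1 library 1 with 1.37 CPM, also had the highest sum of 8 B cell markers (such as Ms4a1 and Cd79a). These B cell markers summed to 6.00, 28.8 and 10.6 CPM in combination, 5.21, 3.75 and 7.00 CPM in entinostat, 35.8, 6.10 and 4.59 CPM in anti-PD-1 and 1.39, 11.8 and 6.73 CPM in control libraries. The part of B cells in the H2-Oa values was not tested. H2-Ob, its beta partner, was likewise highest in anti-PD-1 library 1 with 6.32 CPM, followed by combination library 2 with 3.09 CPM, and H2-Eb2 was highest in the same library with 1.60 CPM. H2-Ob and H2-Eb2 were picked out after their values were seen.

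The processing genes differed from each other in pattern. Ctss, the protease that removes the invariant chain, had 59.7, 83.0 and 15.3 CPM in combination, 63.1, 59.2 and 22.8 CPM in entinostat, 42.3, 39.1 and 35.1 CPM in anti-PD-1 and 19.1, 72.9 and 37.6 CPM in control libraries. Combination library 3 and control library 1 were again the lowest. Ifi30, the lysosomal thiol reductase that opens disulfide bonds of antigens, had 16.8, 16.6 and 12.7 CPM in combination, 35.5, 14.3 and 10.4 CPM in entinostat, 9.63, 14.2 and 19.6 CPM in anti-PD-1 and 34.5, 11.7 and 12.3 CPM in control libraries. Here control library 1 was the second highest of the 12, above every library but entinostat 1, and the range was only 3.68-fold.

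None of the 10 genes passed the test in any comparison (edgeR quasi-likelihood F test with Benjamini-Hochberg adjustment over 17426 genes, threshold 0.05). Against control, 0 of 10 were called with entinostat, where 5.27% of all tested genes were, 0 of 10 with anti-PD-1, where 0.00574% (1 gene) were, and 0 of 10 with the combination, where 11.7% were. With the combination against anti-PD-1 alone and against entinostat alone, 0 of 10 were called beside 0% of all genes in each. Over the main effects, 0 of 10 were called for entinostat (mean of its effects without and with the antibody), beside 10.6% of all genes, and 0 of 10 for anti-PD-1, beside 0%. The interaction of the agents called 0 of 10 and 0% of all genes. DESeq2 called none of the 10 in any of these 8 comparisons. In the 4 comparisons where edgeR called no gene at all, 2168 genes (combination against anti-PD-1), 270 (combination against entinostat), 1886 (anti-PD-1 main effect) and 1052 (interaction) had an unadjusted p under 0.05, and DESeq2 called 424, 1, 103 and 60 genes in that order.

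The groups overlapped for all 10 genes in each of the 7 comparisons with groups to set side by side. Among all tested genes the groups did not overlap in 28.8% for entinostat against control, 17.5% for anti-PD-1 against control, 31.9% for the combination against control, 19.2% for the combination against anti-PD-1 and 6.81% for the combination against entinostat. For 6 libraries with an agent against 6 without it, the share was 4.33% for entinostat and 0.212% for anti-PD-1. At an unadjusted p under 0.05, edgeR and DESeq2 each held 1 of the 10 genes in a single comparison, in edgeR H2-Oa in the anti-PD-1 main effect. Its log2 fold change there was 1.99 (SE 0.86, 95% interval 0.11 to 3.86) with an unadjusted p of 0.04 and an adjusted p of 0.442, on counts of 0 to 41, so the adjusted test does not distinguish it from the spread.

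With entinostat, H2-Ab1 averaged 14.2 ± 9.35 CPM in the 6 libraries that received it and 14.3 ± 12.6 CPM in the 6 that did not (SD), a fitted log2 fold change of -0.02 (SE 0.57). The 95% interval of that change ran from 0.42-fold to 2.35-fold. A 2-fold change in either direction thus lay inside the interval, while a 4-fold change in either direction lay outside it. Its partner H2-Aa changed by 0.11 (SE 0.70) and H2-Eb1 by -0.17 (SE 0.69) on the log2 scale. Cd74 averaged 32.3 ± 18.7 CPM with entinostat and 24.2 ± 17.8 CPM without it, a log2 fold change of 0.41 (SE 0.66) whose interval ran from 0.49-fold to 3.61-fold.

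Ciita had a log2 fold change of 0.21 (SE 0.50) for entinostat. The values were -0.07 (SE 0.44) for H2-DMa, 0.26 (SE 0.54) for H2-DMb1 and -1.17 (SE 0.85) for H2-Oa. The processing genes stood at 0.30 (SE 0.42) for Ctss and 0.06 (SE 0.36) for Ifi30. For 9 of these 10 genes the estimate was smaller than its standard error, the exception being H2-Oa, and adjusted p-values ran from 0.381 to 0.988 in the edgeR test. The median of the 10 was 0.08, beside 0.02 over all tested genes.

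**Figure D2:**
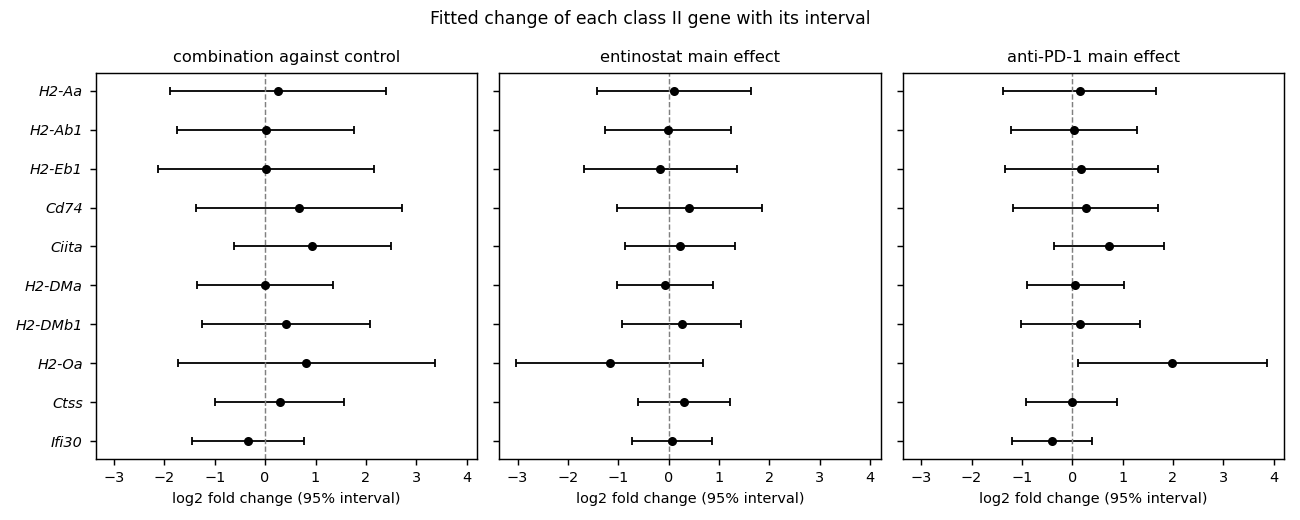
Fitted log2 fold change of each of the 10 genes (points) with its 95% interval (bars) for the combination against control, the entinostat main effect and the anti-PD-1 main effect; the dashed line marks no change. The intervals cross 0 for all 10 genes in the first and second panels, and in the third for all but H2-Oa, whose interval of 0.11 to 3.86 is not adjusted for the number of genes tested.

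With the combination against control, 8 of the 10 estimates were positive, with a median log2 fold change of 0.27 beside 0.05 over all tested genes. Cd74 stood at 0.68 (SE 0.93) and Ciita at 0.94 (SE 0.71), the highest of the 10, with an interval for Ciita from 0.65-fold to 5.63-fold. Control libraries moved both values: Cd74 had 0.13 without control library 1 and 2.06 without control library 2, and Ciita had 0.47 and 1.40 in these fits, with none passing the test. Ifi30 had the lowest value, -0.34. Entinostat alone against control gave 5 positive and 5 negative estimates with a median of -0.19, and anti-PD-1 alone gave 4 positive and 6 negative with a median of -0.23. These 3 comparisons share the same 3 control libraries. In the anti-PD-1 main effect the median was 0.15 beside 0.02 over all genes, and Ciita stood at 0.72 (SE 0.50).

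Over the 12 libraries, 7 of the 9 other genes rose and fell with H2-Ab1, which served as the anchor (log2 CPM with a prior count of 2, two-sided permutation tests with 100000 resamples, adjusted over 16 relations). H2-DMa had a Pearson r of 0.95 with H2-Ab1 (Spearman rho 0.92, adjusted permutation p = 8e-05, n = 12). H2-Eb1 had r = 0.92 (rho 0.98), H2-Aa r = 0.92 (rho 0.97) and Cd74 r = 0.89 (rho 0.94), each also with an adjusted permutation p of 8e-05 for r. The unadjusted p of 1e-05 for H2-DMa and H2-Eb1 is the smallest these permutations can give. Without control libraries 1 and 2, which lie farthest from the median of H2-Ab1, r was 0.87 for H2-DMa, 0.83 for H2-Eb1, 0.85 for H2-Aa and 0.80 for Cd74. Deviations from the group means gave r of 0.95 for H2-DMa and H2-Eb1, 0.94 for H2-Aa and 0.96 for Cd74.

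Ciita followed H2-Ab1 with r = 0.78 (rho 0.72, adjusted permutation p = 0.00567 for r), and r was 0.70 without the 2 libraries. Ctss had r = 0.83 (rho 0.88, adjusted permutation p = 0.00165) and H2-DMb1 r = 0.80 (rho 0.82, adjusted permutation p = 0.00228), and they kept 0.79 and 0.70 without the 2 libraries in that order. H2-Oa did not reach the threshold by Pearson's r (0.59, adjusted permutation p = 0.0601) and did by Spearman's rho (0.67, adjusted permutation p = 0.0273). Ifi30 was the exception to the shared order, with r = -0.42 (rho -0.29, adjusted permutation p = 0.188), and its r was 0.08 without the 2 libraries, so the negative value rests on them. With the 9 other genes Ifi30 had r between -0.65 (Ciita) and 0.01.

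**Figure D3:**
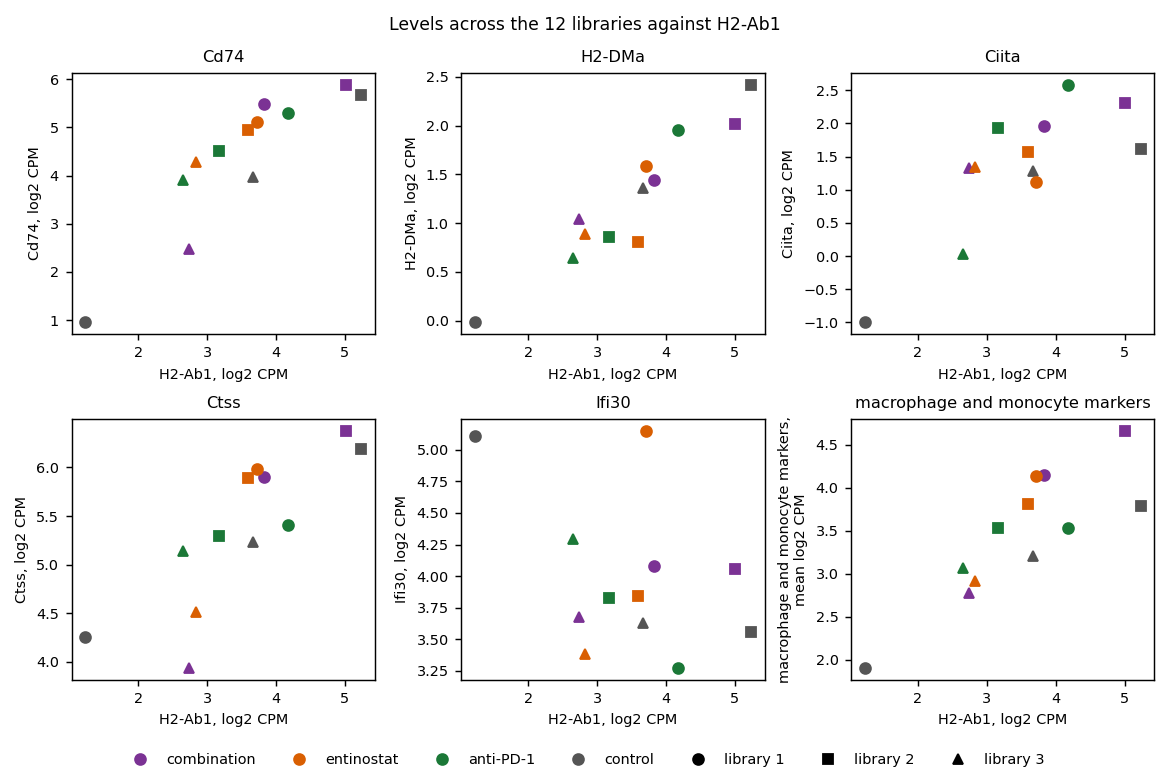
Log2 CPM of Cd74, H2-DMa, Ciita, Ctss and Ifi30 and the mean log2 CPM of the macrophage and monocyte markers (vertical axes) against the log2 CPM of H2-Ab1 (horizontal axes), with a point per library, coloured by group. Cd74 (r = 0.89) and H2-DMa (r = 0.95) rise with H2-Ab1 over the whole range, and Ifi30 (r = -0.42) does not. Libraries of all 4 groups are mixed along the H2-Ab1 axis. Relative to H2-Ab1, Cd74 counts were lower in the control libraries and combination library 3 than in the other libraries.

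Immune marker levels moved with H2-Ab1 over the same libraries. The mean log2 CPM of 14 macrophage and monocyte markers (such as Adgre1, Csf1r and C1qa) had r = 0.85 with H2-Ab1 (rho 0.78, adjusted permutation p = 0.00165), and r was 0.84 without control libraries 1 and 2. The leukocyte markers had r = 0.82 (adjusted permutation p = 0.00171), the B cell markers r = 0.77 (adjusted permutation p = 0.0059) and 6 tested T cell markers r = 0.73 (adjusted permutation p = 0.0103). The macrophage markers summed to 1132, 1291 and 267 CPM in combination, 961, 812 and 300.5 CPM in entinostat, 398.1, 603 and 397.7 CPM in anti-PD-1 and 315, 686 and 377 CPM in control libraries. Combination library 3, low for H2-Aa, H2-Eb1 and Ctss, had the lowest sum. Lyz2 alone made up most of the sum in every library, from 170.5 CPM in combination library 3 to 996.6 CPM in combination library 2. By mean log2 CPM, as used for r, control library 1 was lowest with 1.91 and combination library 3 next with 2.77. Their part in the class II levels was not tested.

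Dendritic cell markers, whose cells carry the most class II per cell, had r = 0.47 with H2-Ab1 (rho 0.38, adjusted permutation p = 0.142). Their sum of 86.9 to 144.0 CPM in combination, 95.5 to 132.8 CPM in entinostat, 112.7 to 126.5 CPM in anti-PD-1 and 78.4 to 207.6 CPM in control libraries was mostly Fscn1, which had 171.3 of the 207.6 CPM in control library 1. The alveolar epithelial markers (such as Sftpc) had r = 0.52 (adjusted permutation p = 0.104) and 0.06 without control libraries 1 and 2. The neuroendocrine markers of the tumour cells had r = -0.06 (rho -0.10, adjusted permutation p = 0.852).

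The 8 genes outside the group most like H2-Ab1, among 13106 that averaged at least 1 log2 CPM, were Krcc1 (r = 0.93), Fcgr1 (0.91), Psmb8 and Cd48 (0.90 each), Fcgr2b (0.90), Fermt3 (0.90), Cd300a (0.90) and Ctso (0.89), over 12 libraries. Fcgr1 and Fcgr2b encode Fc receptors of myeloid and B cells, Cd48 and Cd300a leukocyte surface proteins, Fermt3 an integrin activator of blood cells, Psmb8 an immunoproteasome subunit and Ctso a cysteine protease. H2-DMa had a higher r with H2-Ab1 than any of these 13106 genes, and H2-Aa and H2-Eb1 were exceeded by 1, Krcc1. For Ifi30, 11262 of the genes had a higher r.

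The balance between the chains varied between libraries and was farthest from the others in combination library 3. H2-Aa made up 28.1% (95% exact binomial interval 23.6 to 33.1) of the summed H2-Aa and H2-Ab1 counts in combination library 3, on 103 and 263 counts. In the other 11 libraries the share was 50.4% to 66.4%, and the lowest of these, control library 1, had an interval of 43.9 to 57.0, and the highest, entinostat library 3, one of 62.7 to 69.9. H2-Eb1 made up 17.6% (13.5 to 22.2) of the summed H2-Eb1 and H2-Ab1 counts in combination library 3, against 32.4% to 49.9% in the other 11. H2-Ab1 was thus high relative to both other chains in that library, with 6.61 CPM beside 2.59 CPM for H2-Aa and 1.41 CPM for H2-Eb1. The intervals cover counting error only, and since mates of a pair may have been counted separately, they may be too narrow. The H2 chains differ in sequence between mouse strains, and whether the strain affects the mapping of one chain was not tested. Cd74 counts over H2-Ab1 counts were 3.18, 1.83 and 0.83 in combination and 2.65, 2.55 and 2.75 in entinostat libraries. They were 2.18, 2.54 and 2.40 in anti-PD-1 and 0.83, 1.35 and 1.23 in control libraries. Combination library 3 lay within the control range and every other treated library above it. This ratio was picked out after its values were seen, and the difference was not tested.

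**Figure D4:**
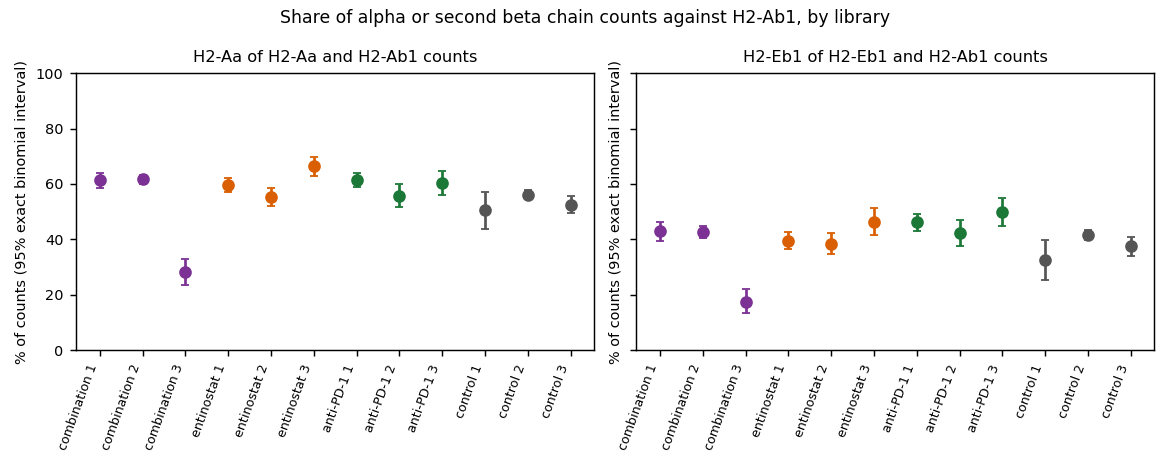
H2-Aa counts as a percentage of H2-Aa plus H2-Ab1 counts (left) and H2-Eb1 counts as a percentage of H2-Eb1 plus H2-Ab1 counts (right) in each of the 12 libraries, with 95% exact binomial intervals. Combination library 3 lies at 28.1% and 17.6%, below the interval of every other library in both panels.

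Of 22 listed genes that regulate, load or degrade class II outside the 10, 18 were tested. In the combination against control, entinostat against control and the entinostat main effect, 2 of the 18 fell and none rose, where 11.7%, 5.27% and 10.6% of all tested genes were called in that order. The share of the list called was thus near that of all genes for the combination and the main effect. For entinostat against control it was above that of all genes, on the same 2 genes. The result is about the 2 genes and not about the list. They were Nfyb, a subunit of the NF-Y factor that binds the Y box, and March8, a ubiquitin ligase that removes class II and other proteins from the cell surface. Nfyb had 28.0, 23.9 and 21.6 CPM in combination, 24.3, 29.8 and 34.4 CPM in entinostat, 30.6, 39.2 and 26.1 CPM in anti-PD-1 and 56.1, 50.1 and 54.9 CPM in control libraries. Every treated library lay below the 3 control libraries, those with the antibody alone included. Groups did not overlap for 3 of the 18 listed genes in each treatment against control, beside the 31.9%, 28.8% and 17.5% of all genes given above for the combination, entinostat and anti-PD-1.

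The log2 fold change of Nfyb was -1.13 (SE 0.21, edgeR adjusted p = 0.0111) for the combination against control, -0.86 (SE 0.21, adjusted p = 0.0367) for entinostat against control and -0.62 (SE 0.15, adjusted p = 0.0241) for the entinostat main effect. For anti-PD-1 against control it was -0.75 with an adjusted p of 0.151. The 3 control libraries are shared by these comparisons. When each library was left out in turn, Nfyb passed in 11 of 12 fits for the combination, in 3 of 12 for entinostat against control and in 9 of 12 for the main effect. With the alveolar markers as a covariate the adjusted p was 0.0475 for the combination, 0.14 for entinostat against control and 0.0813 for the main effect, and with the macrophage markers it was 0.0316, 0.0688 and 0.0554, so the calls other than that of the combination were lost. The other NF-Y subunits did not pass in the entinostat main effect, with log2 fold changes of 0.74 (SE 0.29, adjusted p = 0.112) for Nfya and -0.08 (SE 0.15, adjusted p = 0.771) for Nfyc. Nor did the RFX subunits, with 0.30 (SE 0.19) for Rfx5, 0.06 (SE 0.18) for Rfxap and -0.34 (SE 0.22) for Rfxank.

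March8 had 41.2, 64.5 and 33.8 CPM in combination, 47.0, 50.5 and 43.4 CPM in entinostat, 70.1, 58.3 and 52.0 CPM in anti-PD-1 and 91.0, 80.1 and 97.9 CPM in control libraries. All treated libraries were again below the control libraries. Its log2 fold change was -0.95 (SE 0.23, edgeR adjusted p = 0.0275) for the combination against control, -0.93 (SE 0.23, adjusted p = 0.0428) for entinostat against control and -0.65 (SE 0.16, adjusted p = 0.0304) for the entinostat main effect. It passed in 8, 4 and 6 of the 12 leave-one-out fits for these comparisons in that order, and in none of them with the alveolar covariate (adjusted p = 0.0973, 0.172 and 0.119) or with upper quartile factors (adjusted p = 0.0638, 0.091 and 0.0594). The cysteine protease Ctsl, 0.41 (SE 0.16, adjusted p = 0.105), and the protease inhibitor Cst3, -0.75 (SE 0.27, adjusted p = 0.0971), did not pass in the main effect.

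Another measure of the libraries also set the control group apart. The structural RNAs Rpph1, Rn45s and Rmrp took 17.7% to 18.0% of counts in combination, 15.2% to 19.3% in entinostat, 20.5% to 36.4% in anti-PD-1 and 7.84% to 13.2% in control libraries. With these 3 genes removed before scaling, the adjusted p was 0.0112 for Nfyb and 0.0274 for March8 for the combination against control. The part of the structural RNAs in the Nfyb and March8 values was not tested beyond this. The summed neuroendocrine markers given above overlapped between control libraries and those of anti-PD-1 and entinostat. In all combination libraries they were below the control libraries (508 to 1046 CPM beside 1067 to 1984 CPM). Their part in the Nfyb and March8 values was not tested.

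On the interferon gamma axis that drives Ciita outside professional antigen-presenting cells, 12 of 13 listed genes were tested. Of these, 1 rose with the combination against control, where 11.7% of all tested genes were called, and none passed in the other comparisons, so the list held no larger share of calls than all genes did. It was Irf1, the interferon-induced factor that acts on an interferon-responsive promoter of Ciita. Irf1 had 11.5, 15.6 and 13.5 CPM in combination, 14.7, 8.90 and 6.11 CPM in entinostat, 6.89, 6.99 and 10.1 CPM in anti-PD-1 and 5.23, 6.13 and 6.12 CPM in control libraries. All combination libraries lay above all control libraries, and the difference was 1.22 on the log2 scale (SE 0.34; adjusted p = 0.0424 in edgeR). Groups did not overlap in this comparison for 2 of the 12 listed genes and for 31.9% of all tested genes. The call held in 3 of 12 leave-one-out fits, and it was lost with the macrophage markers (1.05, adjusted p = 0.102) or the alveolar markers (1.06, adjusted p = 0.146) as a covariate. Ifng itself had 4 counts in control library 1 and none in the other 11 libraries, where 3 counts would correspond to 0.0621 to 0.106 CPM.

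**Figure D5:**
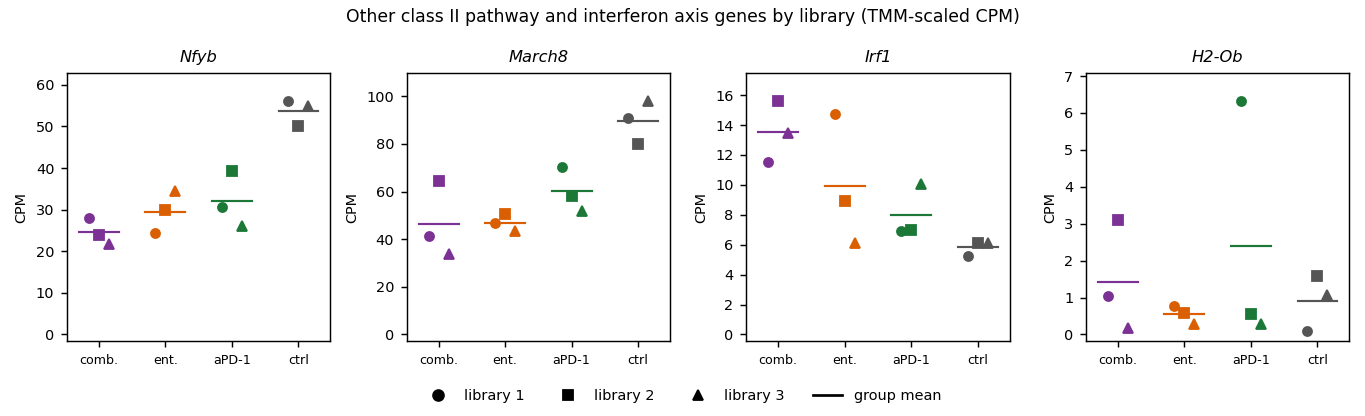
TMM-scaled CPM of Nfyb, March8, Irf1 and H2-Ob on linear axes, with a point for each of 3 libraries per group and a line at the group mean, in the order combination, entinostat, anti-PD-1 and control. Nfyb and March8 are lower in all 9 treated libraries than in the 3 control libraries, Irf1 is higher in combination than in control libraries, and H2-Ob is highest in anti-PD-1 library 1 (6.32 CPM).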

How the data were processed

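Flash-frozen, dissected lung tumour gave the RNA, and the NEBNext libraries were poly(A)-selected, per the labels' protocols. The authors deposited raw, whole-number counts of 22738 gene rows in 12 libraries. The submitters' processing notes name the build mm9 and STAR 2.5.4a, Trimmomatic 0.36, Trim Galore, R 3.5.1 and DESeq2 1.22.2. They name no annotation, strand setting or handling of multiply mapped reads. Among counts of 1 to 20, 65.3% to 77.2% per library were even, so both mates of a pair may have been counted.

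Groups follow the titles, since in the combination libraries the treatment tag gives the antibody without entinostat, and all libraries carry batch label 2. Counts were fitted in R 4.3.3 with edgeR 4.0.16 (filterByExpr, TMM factors, a mean per group over all 12 libraries, robust quasi-likelihood F test) in 8 comparisons. A standard error is the log2 fold change divided by the square root of F. Alternatives were RLE and upper quartile factors, DESeq2 1.42.0, no filter, a replicate block, halved counts, removal of Rpph1, Rn45s and Rmrp, marker covariates and leaving out each library. Total counts of 31295987 to 54001886 leave little counting error except for genes with few counts, such as H2-Oa, so the spread between libraries sets the precision. All 66 pairs of libraries differed beyond sampling noise, with a chi-square of 33.5 or more per degree of freedom. On simulated data with 17172 genes, the entinostat main effect recovered 32% of 2-fold and 86% of 4-fold changes. These shares are not the power for the class II genes, which was not tested at their own spread. Their standard errors in this effect included 0.57 for H2-Ab1 and 0.70 for H2-Aa on the log2 scale.

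Exon lengths came from GENCODE M21 and promoters from RefSeq, both on GRCm38, matched by symbol. The genes and lists were chosen with earlier results of these data known. All 10 genes are named, of the other pathway and interferon lists each gene past the threshold in any comparison, and the 8 genes most like H2-Ab1. The other genes of these lists that are given with values were picked after their values were seen. Some genes of the marker and interferon lists are not reported here by name.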

Additional observations from a re-analysis of the deposited data

Results flagged for a closer look

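Control library 1 lay apart from the libraries it was set beside in 2 sets for Cd74 and in 1 set for Ciita. For Cd74 it was the lowest of the 6 libraries without entinostat (1.90 CPM), and the gap to the nearest library on the log2 scale was 0.626 of the range of the 6, beside a critical value of 0.625. It was also the lowest of the 6 libraries without anti-PD-1, with a gap of 0.639 of the range. For Ciita it was the lowest of the 6 libraries without anti-PD-1 (0.45 CPM), with a gap of 0.809 of the range, but among the 6 without entinostat the gap was 0.286, since anti-PD-1 library 3 was close with 0.97 CPM. These are 3 of 40 tests of this kind over the 10 genes and the 4 sets of 6 libraries, where chance alone flags about 5%, which is near this number. The same library had the lowest summed B cell markers (1.39 CPM) and the highest summed neuroendocrine markers (1984 CPM) of the 12. By mean log2 CPM, as used for r, its neuroendocrine markers were not the highest. They stood at 5.57, beside 5.93 in each other control library and 6.10 in entinostat library 3. The part of the B cell and neuroendocrine markers in its low class II values was not tested.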

How the results depend on the processing

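None of the 176 alternative fits of the 8 comparisons called any of the 10 genes, the replicate block included (0 called in each comparison). The macrophage covariate in edgeR came nearest. With it, 3 of the 10 genes had an unadjusted p under 0.05 for the combination against control (lowest adjusted p 0.0592). So did 3 for the entinostat main effect (0.0998), 2 for entinostat against control (0.19) and 2 for the combination against anti-PD-1 (0.348). In the main edgeR fit none did in these comparisons (lowest adjusted p 0.394, 0.381, 0.575 and 0.723 in that order). The replicate numbers were not taken to pair the libraries. Deviations from group means over all tested genes had r between -0.29 and 0.23 for same-numbered libraries of different groups, over 0.1 in 8 of 18 pairs. Pairs with different numbers were not computed, so these values cannot decide whether the numbers pair the libraries. Directions were unstable. Over the 3 comparisons in which every gene was refitted, 26 of 30 fold changes turned sign in at least one alternative, in 113 of 657 fits, and the cause was not tested. For the entinostat main effect, the alveolar covariate gave -0.66 for H2-Aa, -0.47 for Cd74, -0.56 for H2-DMb1 and -0.33 for Ctss. The macrophage covariate gave -0.81 for H2-Aa, -0.42 for Cd74, -0.0636 for Ciita, -0.65 for H2-DMb1 and -0.47 for Ctss. Upper quartile factors gave 0.0878 for H2-Ab1 and 0.0420 for H2-DMa, while moving the median of all genes to 0.15. For the combination against control, Cd74 had -0.0236 with the alveolar and -0.69 with the macrophage covariate. Leaving out each library in turn moved the entinostat main effect between -0.42 and 0.81 for H2-Aa, -0.40 and 0.60 for H2-Ab1, -0.67 and 0.56 for H2-Eb1, -0.022 and 0.49 for Ciita, -0.28 and 0.31 for H2-DMa, -0.00047 and 0.74 for H2-DMb1, and -0.29 and 0.41 for Ifi30. For the combination against control it moved Cd74 between 0.13 and 2.06 and Ciita between 0.47 and 1.40. The r of Ifi30 with H2-Ab1 was 0.0833 without control libraries 1 and 2.

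Calls of single pathway genes also moved. With the replicate block the adjusted p was 0.054 for Nfyb in the entinostat main effect, 0.0784 for Nfyb and 0.0716 for March8 in entinostat against control, and 0.0789 for Irf1. Upper quartile factors gave 0.0831 for Nfyb in entinostat against control, and no filter gave 0.0612 for Irf1. Without control library 1 and combination library 3, none of the Nfyb, March8 and Irf1 calls passed (adjusted p of 0.0757 to 0.185). Over all genes, the replicate block called 321 for entinostat against control (919 without it), 1087 for the combination against control (2033) and 974 for the entinostat main effect (1849). The alveolar covariate called 0, 377 and 298 genes in these comparisons and the macrophage covariate 444, 1071 and 1057. Leaving out control library 1 and combination library 3 together, chosen after the values were seen, called 209, 0 and 633 of 17678 genes, so for the combination against control it bears on no single gene. DESeq2 called 2396, 3591 and 3422 in the same order and 704 for anti-PD-1 against control, where edgeR called 1. Leaving out each library in turn gave 2 to 1002 calls for entinostat against control, 306 to 2038 for the combination against control and 600 to 2022 for the entinostat main effect. With 0 to 41 counts, H2-Oa carries counting error as well as the spread between libraries, and their parts were not separated. The spread between libraries limits the other genes.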
